A study of Mus musculus with 16 samples.

Results

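The nuclear genes of oxidative phosphorylation were followed in cortex RNA from 16 mice. They were chosen by name: the protein-coding rows of the count table whose symbol begins with Nduf followed by a, b, c, s or v, with Uqcr, with Cox4 to Cox8 or with Atp5, together with Sdha to Sdhd. This gave 92 of the 55385 genes in the table. Complex I accounted for 37 genes, complex II for 4, complex III for 8, complex IV for 20 and complex V for 15. Cox7a2l is counted with the subunits of complex IV, although it is known as a factor of supercomplex assembly. The name rule also took in 8 Ndufaf genes, which encode assembly factors of complex I and not subunits. It did not take in Cyc1, a nuclear-coded subunit of complex III, which is described with the electron carriers. Atp5j and Atp5o were left out because they lie in the chromosome 16 segment that Dp16 mice carry in an extra copy, and they are described separately at the end. Of the 92 genes, 91 passed the filter on low counts, and Cox8c had 0 reads in all 16 libraries.

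All animals were 5 months old, with 4 per genotype and 1 library per animal. The genotypes were wild-type C57BL/6J, Dp16, 5xFAD and 5xFAD-Dp16, which carries both alterations. Dp16 mice have a duplication of a chromosome 16 segment that covers most mouse counterparts of human chromosome 21 genes. 5xFAD mice are a transgenic model of familial Alzheimer disease in which the neuronal Thy1 promoter drives expression, so the transgenes act in Thy1-expressing neurons. Wild-type, Dp16 and 5xFAD groups each held 2 males and 2 females, whereas the 4 5xFAD-Dp16 animals were males. The main fit therefore carried a sex term. Poly(A)+ RNA of whole cortex was measured, so that fewer cells of a type and less RNA per cell cannot be told apart.

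Oxidative phosphorylation passes electrons from NADH through complex I, or from succinate through complex II, to ubiquinone, then through complex III and cytochrome c to complex IV, where oxygen is reduced. Complexes I, III and IV pump protons across the inner mitochondrial membrane, and complex V, the ATP synthase, uses the returning protons to make ATP. Apart from complex II, each complex combines subunits coded in the nucleus with some coded in the mitochondrial genome, and cortical neurons depend heavily on the pathway for synaptic activity.

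Libraries held 12483286 to 20385010 counted reads, of which the 92 genes took 1.93 to 3.75%. Thy1 stood at 809 to 946 CPM (counts scaled to a common library size) in the 8 animals without the transgenes and at 1449 to 1885 in the 8 with them. App, which is triplicated in Dp16, lay between 1404 and 1889 CPM in Dp16 and between 841 and 1507 in wild-type, and between 1572 and 2073 in 5xFAD-Dp16 against 604 to 933 in 5xFAD. For the labelled tissue, 15 genes of cortical excitatory neurons were examined, and all were detected. Detection alone does not set cortex apart from other brain regions. In wild-type these genes summed to 3618 to 6548 CPM, 9 striatum markers to 1443 to 2105 and 8 cerebellum markers to 178 to 215. Libraries also differed in how long and short genes were represented. For each library, a length rho was taken as the Spearman correlation across the 17019 tested genes between exonic length and the library's deviation from the mean of all libraries, a positive value meaning that long genes were over-represented. The lowest value was -0.46, in 5xFAD replicate 3, and the highest 0.45, in 5xFAD-Dp16 replicate 1. The median exonic length was 983 bp among the tested members and 3066 bp among all tested genes.

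Promoter sequence was examined to describe the members, and its part in their levels or changes was not tested. RefSeq sequences of build GRCm38.p6, covering 250 bases before to 50 bases after a gene's start, were matched by symbol for 75 of the 92 members, with 79 promoters in all. The element GCANGCGC, part of the site of NRF1, a factor known to drive many respiratory chain genes, was present on either strand in 29 of the 79 (36.7%). It was present in 17.0% of the promoters of tested protein-coding genes and in 9.61% of all promoters in the table. CCGGAAG, the core bound by GABP and other ETS factors, was found in 18 member promoters (22.8%) against 15.3% of promoters of tested coding genes and 8.86% of all. AAGATGGCG, which holds the YY1 core, was found in 7 (8.86%) against 2.56% and 1.40%. TATAAA on either strand was found in 9 (11.4%) against 7.43% and 13.6%. These matches describe letters in a window and do not show binding, and matches of different motifs overlapped in 0 member promoters. The letters were chosen after the promoter sequences were seen, so the shares are a description and not a test of enrichment. The NRF1 element was present in 11 of 35 promoters of complex I, 3 of 3 of complex II, 3 of 5 of complex III, 2 of 14 of complex IV, 8 of 15 of complex V and 2 of 7 of the assembly factors. The following 300-base windows show 1 gene per complex. It had the lowest ratio of log2 change to standard error between 5xFAD-Dp16 and 5xFAD among the genes eligible. Genes without a matched promoter and genes on a chromosome left out of this display were passed over. For Ndufa5, which had 2 promoters listed, the first is shown. The windows lie at chr6:24527477-24527776 (Ndufa5, minus strand), chr4:140961021-140961320 (Sdhb, plus), chr11:4704295-4704594 (Uqcr10, minus), chr17:83514284-83514583 (Cox7a2l, minus) and chr19:47090598-47090897 (Atp5md, minus). Each is written 5′ to 3′ on the gene's strand, and capitals mark matches to any of the 4 motifs on either strand.
Ndufa5: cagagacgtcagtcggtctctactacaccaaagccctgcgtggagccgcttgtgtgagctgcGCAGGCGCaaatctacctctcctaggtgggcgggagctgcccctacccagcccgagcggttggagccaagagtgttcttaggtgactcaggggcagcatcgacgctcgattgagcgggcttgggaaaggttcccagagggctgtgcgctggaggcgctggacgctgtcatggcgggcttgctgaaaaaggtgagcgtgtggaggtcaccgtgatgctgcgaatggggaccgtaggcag
Sdhb: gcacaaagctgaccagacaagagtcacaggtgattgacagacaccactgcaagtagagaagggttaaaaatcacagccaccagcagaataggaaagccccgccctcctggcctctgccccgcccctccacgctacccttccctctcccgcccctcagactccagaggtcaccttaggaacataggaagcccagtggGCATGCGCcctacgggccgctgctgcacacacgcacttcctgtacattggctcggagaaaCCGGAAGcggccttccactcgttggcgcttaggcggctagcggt
Uqcr10: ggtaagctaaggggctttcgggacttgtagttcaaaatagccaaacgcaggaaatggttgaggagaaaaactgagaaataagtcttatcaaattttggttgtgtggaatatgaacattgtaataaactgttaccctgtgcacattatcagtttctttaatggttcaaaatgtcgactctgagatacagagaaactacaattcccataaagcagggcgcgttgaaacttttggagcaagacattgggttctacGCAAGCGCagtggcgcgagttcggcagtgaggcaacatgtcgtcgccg
Cox7a2l: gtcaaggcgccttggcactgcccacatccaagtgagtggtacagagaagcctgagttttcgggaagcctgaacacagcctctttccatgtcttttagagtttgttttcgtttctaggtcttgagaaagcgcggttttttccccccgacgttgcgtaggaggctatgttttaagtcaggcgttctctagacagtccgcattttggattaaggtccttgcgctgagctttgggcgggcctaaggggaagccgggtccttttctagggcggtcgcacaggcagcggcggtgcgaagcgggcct
Atp5md: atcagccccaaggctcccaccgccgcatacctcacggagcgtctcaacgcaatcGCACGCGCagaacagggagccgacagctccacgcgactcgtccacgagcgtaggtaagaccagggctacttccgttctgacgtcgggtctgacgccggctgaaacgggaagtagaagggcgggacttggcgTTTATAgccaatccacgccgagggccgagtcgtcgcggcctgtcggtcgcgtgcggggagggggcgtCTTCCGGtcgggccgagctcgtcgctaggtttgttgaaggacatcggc
The Ndufa5 and Uqcr10 windows held 1 NRF1 match each, and the Sdhb window held 1 NRF1 match and 1 GABP core. The Atp5md window held 1 match each to the NRF1, GABP and TATAAA letters. No match to the 4 motifs was found in the Cox7a2l window.

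Transcript levels spread over more than 3 orders of magnitude between members. Levels are compared here as RPKM, read counts scaled by exonic length and library total, averaged over the 16 libraries. Median levels were 327 RPKM for complex V, 323 for complex IV, 291 for complex III, 191 for complex I and 110 for complex II. The complex I assembly factors had a median of 24.2 RPKM, below the median of every complex. Cox4i1, the largest nuclear-coded subunit of complex IV, had the highest level at 2116 RPKM. Uqcrh, the acidic hinge subunit of complex III that helps cytochrome c docking, followed at 1272, and Ndufb9 led complex I at 870. The succinate dehydrogenase genes ranged from 46.3 RPKM for the membrane anchor Sdhc to 228 for the iron-sulfur subunit Sdhb.

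**Figure D1:**
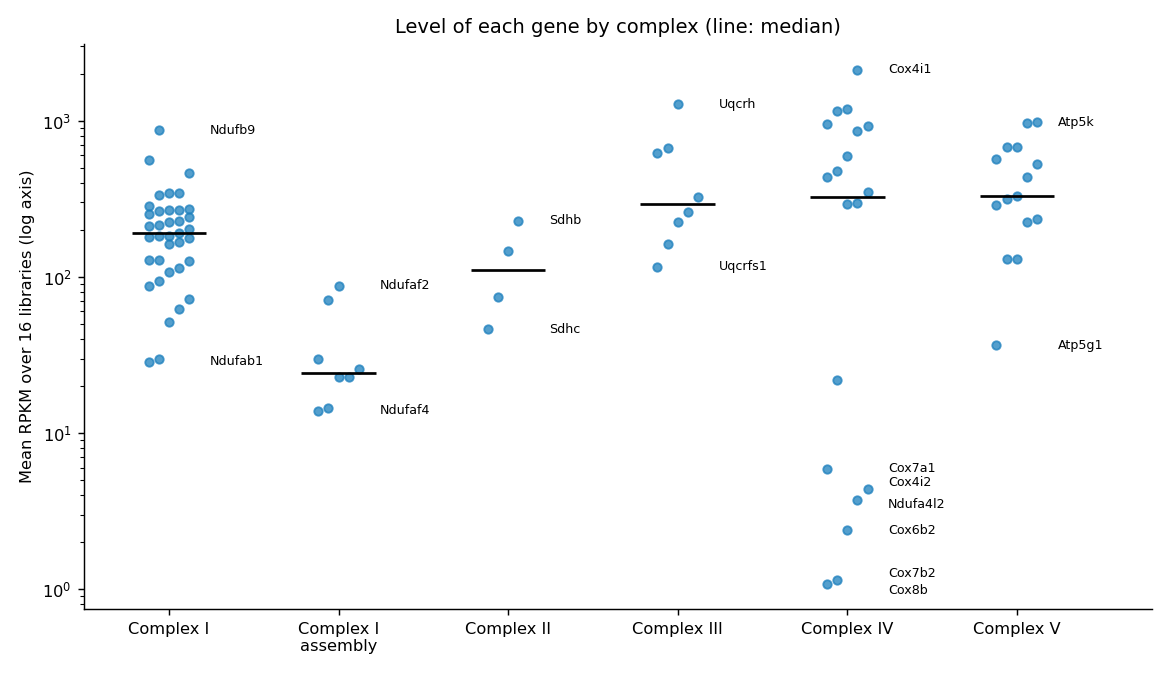
Mean RPKM over 16 libraries (log axis) of each member, grouped by complex, with the median of each group as a line; Cox8c, at 0, is not drawn but counts in the complex IV median. Low points in complex IV are the alternative isoforms, with Cox7a1 at 5.92 RPKM and Cox8b at 1.09, whereas Cox4i1 lies highest at 2116.

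Complex IV isoforms separated into brain-abundant and minor forms. Cox6a1, the widely expressed form of subunit 6a, stood at 1153 RPKM and Cox6a2, known as the form of heart and skeletal muscle, at 21.7. Cox4i2, a form known from lung and vascular mural cells, stood at 4.37 RPKM. Ndufa4l2, a hypoxia-inducible paralog of the complex IV subunit Ndufa4, stood at 3.73 RPKM against 918 for Ndufa4. Cox7a1, Cox6b2, Cox7b2 and Cox8b lay between 1.09 and 5.92 RPKM. The c ring of complex V is coded by 3 genes whose mature proteins are identical: Atp5g3 had 675 RPKM, Atp5g2 had 130 and Atp5g1 had 36.6. Atp5g1 has an exonic length of 4912 bp, so that its RPKM is lowered relative to its read count.

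Adding Dp16 to 5xFAD was accompanied by lower estimates for most members, but no single gene passed the test. In 5xFAD-Dp16 minus 5xFAD, 84 of 91 members had a negative log2 change and the median was -0.57, beside a median of -0.00 over all tested genes, of which 50.2% were negative. With edgeR's quasi-likelihood test, 0 members passed an adjusted p of 0.05, the smallest adjusted p among them being 0.155. Among all tested genes 0.0% were called lower and 0.0% higher. At an unadjusted p below 0.05, 61 members were lower and 0 were higher, against 12% of all genes lower and 11.8% higher. In 14 members every 5xFAD-Dp16 library lay below every 5xFAD library, a pattern that 5.87% of all tested genes showed. The call depended on the fit, and the fits that called members also called other genes in both directions. DESeq2 called 7 members lower (Atp5mpl, Ndufb9, Ndufa5, Cox7a2l, Cox6b1, Cox5b and Atp5md), against 1.91% of all genes lower and 2.68% higher. EdgeR without the count filter called 55 members lower, against 2.96% of all genes lower and 4.64% higher. In males alone it called 67 lower, with 10.5% of all genes lower and 12% higher. That fit held 2 5xFAD males, replicates 3 and 4, at a length rho of -0.46 and -0.24. The 4 5xFAD-Dp16 males lay at 0.10 to 0.45. In a fit to the groups compared alone edgeR called 74 of 89 lower, with 15.7% of all genes called in each direction.

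Ndufb9, a subunit of the proton-pumping arm of complex I, had 522, 577, 1101 and 799 CPM in 5xFAD and 359.9, 557, 442 and 476 in 5xFAD-Dp16. The Dp16 libraries had 597, 619, 496 and 718 CPM, and the wild-type libraries 738, 851, 641 and 402. The high 5xFAD value was that of replicate 3 and the low wild-type value that of replicate 4, and groups overlapped. Its log2 change in 5xFAD-Dp16 minus 5xFAD was -0.80 ± 0.24 (SE; edgeR adjusted p = 0.155). Ndufa5, a subunit of the quinone-reducing module, had 146, 162, 256 and 196 CPM in 5xFAD against 113, 138, 128 and 141 in 5xFAD-Dp16. These groups did not overlap, and the log2 change was -0.58 ± 0.18 (edgeR adjusted p = 0.155). Cox4i1 had 1368, 1609.8, 1991.8 and 2822 CPM in the 5xFAD animals, in ascending order, and 976, 1190.4, 1344 and 1396 in the 5xFAD-Dp16 animals. Only the lowest 5xFAD library fell within the range of 5xFAD-Dp16 for this gene, whose log2 change was -0.74 ± 0.24 (edgeR adjusted p = 0.155). Atp5md, a small membrane subunit of complex V, had the lowest estimate of all members at -0.94 ± 0.28, with 286, 330.2, 729.9 and 469 CPM in 5xFAD and 196, 293, 238 and 281 in 5xFAD-Dp16. Its groups overlapped at the lowest 5xFAD library, and edgeR gave an adjusted p of 0.155.

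**Figure D2:**
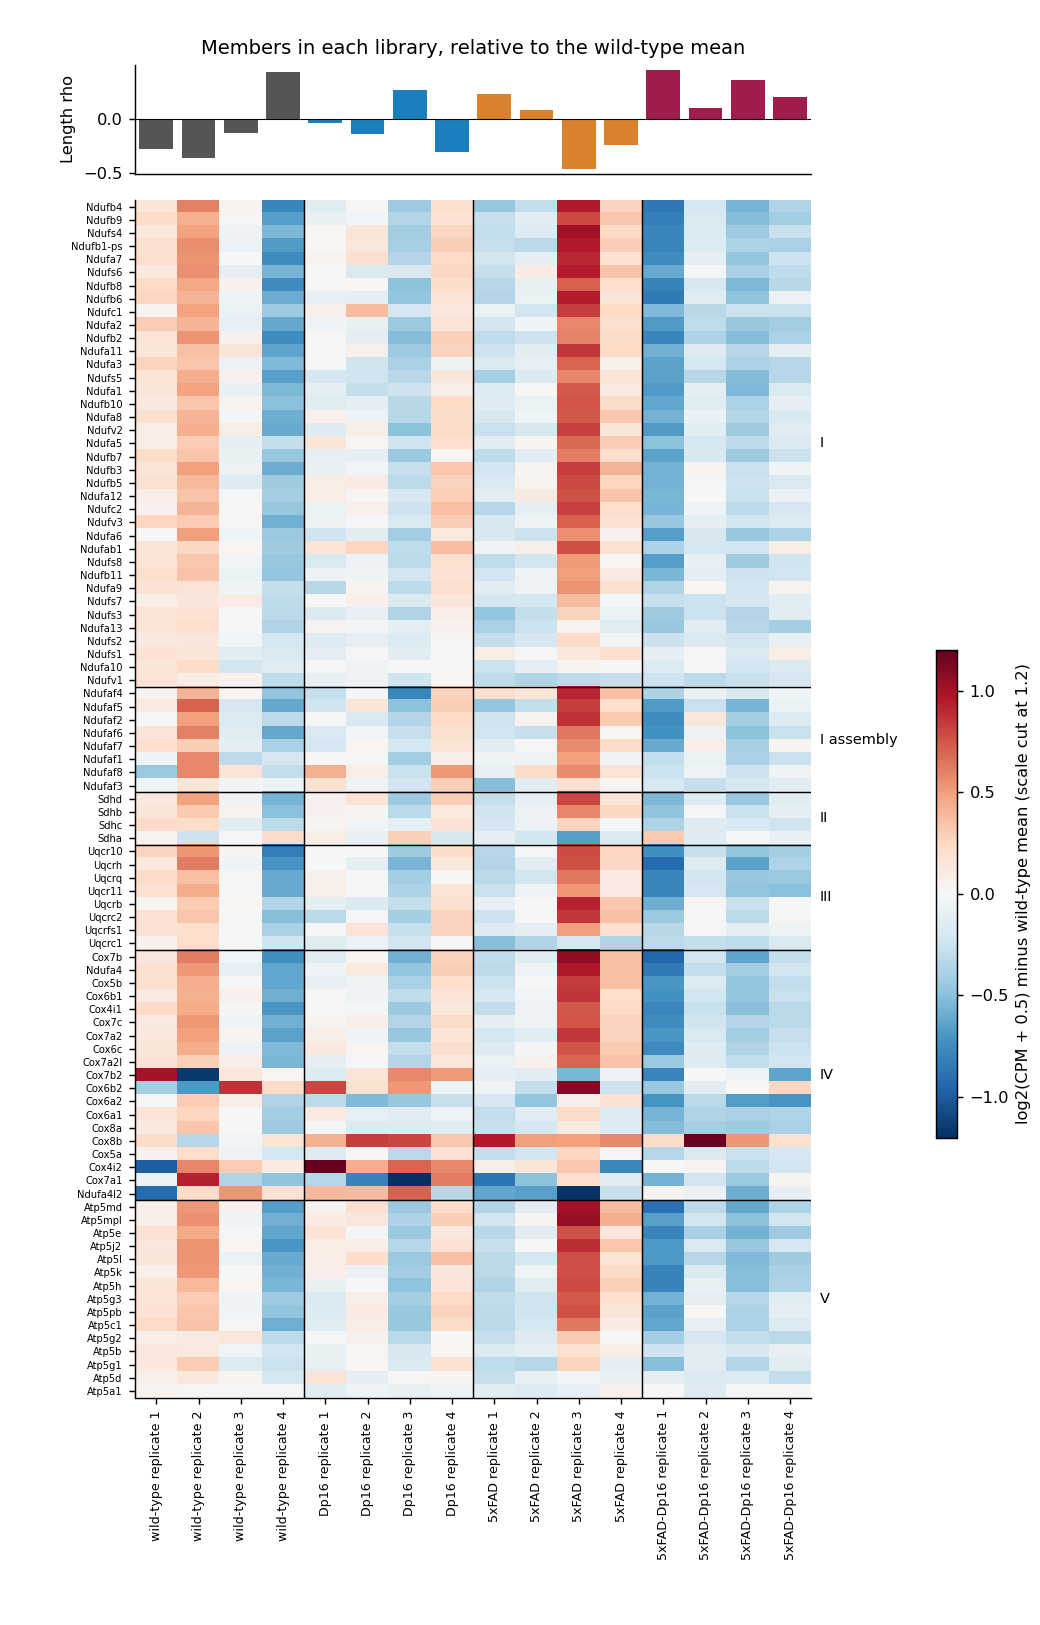
Each row is a tested member, grouped by complex and ordered by its change in 5xFAD-Dp16 minus 5xFAD; each column is a library, coloured by log2(CPM + 0.5) minus the wild-type mean, with the colour scale cut at 1.2. Bars above give the length rho of each library, and 5xFAD replicate 3 (rho -0.46) is high in most rows while 5xFAD-Dp16 replicate 1 (rho 0.45) and wild-type replicate 4 (rho 0.43) are low.

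All 5 complexes had negative medians in this comparison. The median log2 change was -0.58 for complex I, -0.35 for complex II, -0.61 for complexes III and IV and -0.53 for complex V, and it was -0.49 for the complex I assembly factors. Within complex I, the proton-pumping membrane arm had a median of -0.61 with 20 of 20 genes negative, the NADH-oxidising module -0.58 with 9 of 10, and the quinone-reducing module -0.32 with 6 of 6. Within complex V, the 5 small membrane subunits had a median of -0.74 and the 3 c ring genes -0.36. The distance between the highest and lowest complex median was 0.25, but 0.046 once the trend of each library with exonic length was removed and 0.084 with the trend on transcript length removed. With the exonic trend removed, the module medians were -0.18 for the membrane arm, -0.20 for the NADH-oxidising module and -0.03 for the quinone-reducing module. Differences between complexes and between modules were not tested. Complex II, with 4 genes, ranged from -0.57 for the membrane anchor Sdhd to 0.33 for the flavoprotein Sdha.

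A score per library, the mean over a complex's members of log2 CPM minus the wild-type mean, showed how closely the complexes moved together within an animal. For complex I the scores were 0.16, 0.36, -0.03 and -0.49 in wild-type and -0.05, -0.02, -0.31 and 0.18 in Dp16. They were -0.24, -0.12, 0.63 and 0.16 in 5xFAD and -0.57, -0.15, -0.36 and -0.21 in 5xFAD-Dp16. Each 5xFAD-Dp16 library was below the wild-type mean, but wild-type replicate 4 was lower than 3 of the 4. For complex V the mean score was 0.08 ± 0.39 (SD, n = 4) in 5xFAD and -0.34 ± 0.17 in 5xFAD-Dp16, and for complex II -0.01 ± 0.20 and -0.19 ± 0.07. Across single libraries the scores of the 5 complexes spanned 0.06 to 0.38, and in 13 of 16 libraries all 5 had the same sign. In 5xFAD the 2 females had negative overall scores (-0.23 and -0.11) and the 2 males positive ones (0.57 and 0.15).

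**Figure D3:**
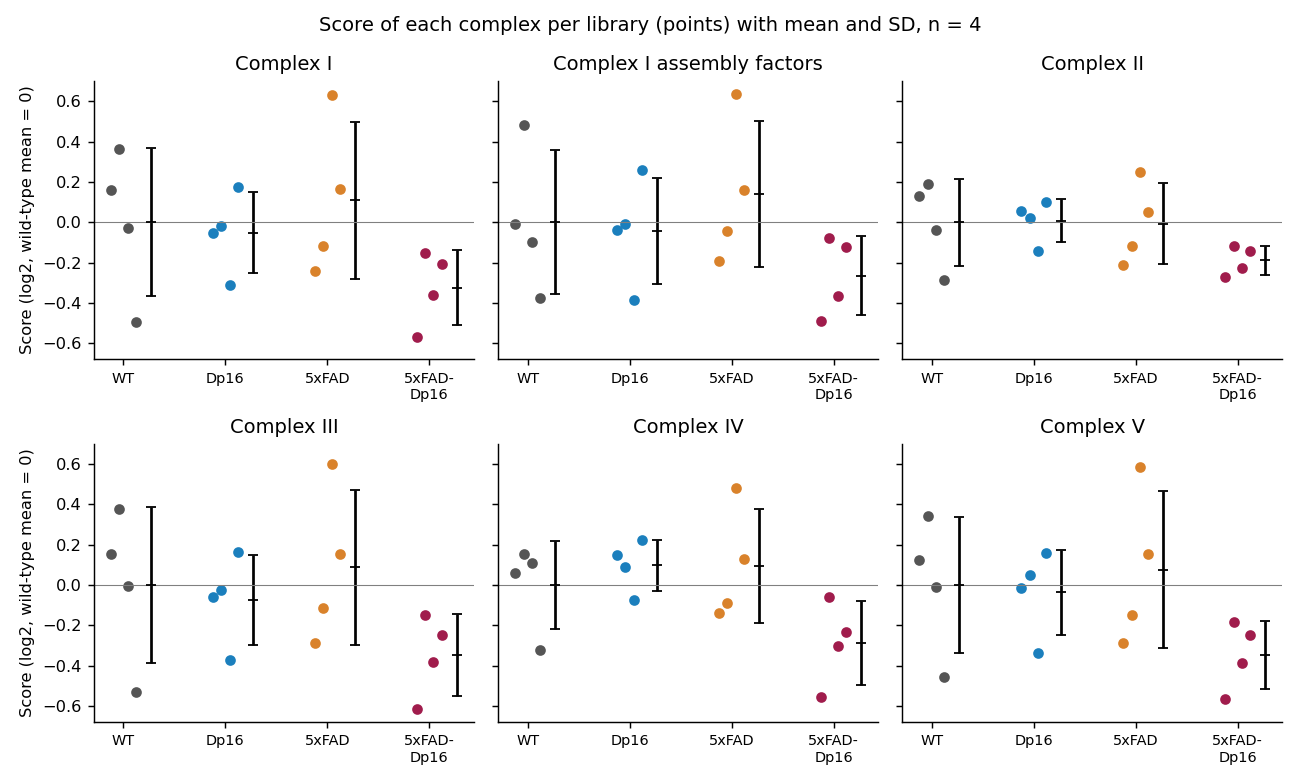
Score of each complex (log2, wild-type mean at 0) in each library by genotype, with the mean and SD of 4 animals beside the points; WT is wild-type. In all 6 panels the 5xFAD-Dp16 points lie below 0, wild-type and 5xFAD spread on both sides of 0, and complex II spans the narrowest range.

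The overall score followed the length rho of the library. The 3 lowest scores, -0.55 in 5xFAD-Dp16 replicate 1, -0.44 in wild-type replicate 4 and -0.35 in 5xFAD-Dp16 replicate 3, belonged to the libraries with the highest length rho, 0.45, 0.43 and 0.36. The highest score, 0.57 in 5xFAD replicate 3, belonged to the library with the lowest length rho, -0.46. Mean length rho was 0.28 ± 0.16 (SD, n = 4) in 5xFAD-Dp16 and -0.10 ± 0.31 in 5xFAD. When the trend of each library with exonic length was removed, the median member change in 5xFAD-Dp16 minus 5xFAD was -0.18, with 72 of 91 negative, and 0 members passed with edgeR. With the trend on transcript length removed in its place, the median was -0.15. Without 5xFAD replicate 3, the median was -0.28, and without both that library and wild-type replicate 2, the libraries least like the others, it was -0.37.

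**Figure D4:**
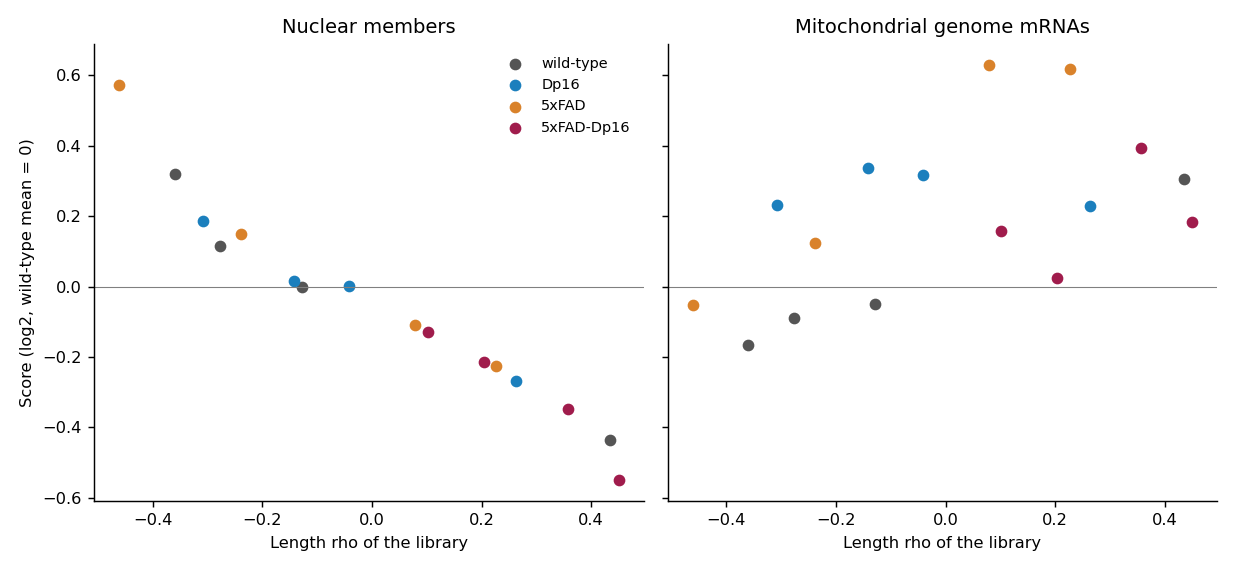
Score of the nuclear members (left) and of the 13 mitochondrial genome mRNAs (right) in each of 16 libraries against the library's length rho, coloured by genotype. Nuclear scores descend from 0.57 at a rho of -0.46 to -0.55 at 0.45, and mitochondrial scores, highest at 0.63 and 0.62 in 2 5xFAD libraries, do not follow that line.

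Other genes of like exonic length gave the same comparison a yardstick. Among coding genes under 700 bp, the 26 members had a median change of -0.62 in 5xFAD-Dp16 minus 5xFAD and the 160 other genes -0.61. Between 700 and 1000 bp, the medians were -0.59 for 20 members and -0.51 for 386 others. From 1000 to 1500 bp they were -0.56 for 21 members and -0.36 for 1149 others, and from 1500 to 3000 bp -0.46 for 19 members and -0.10 for 4388 others. At 3000 bp and over the 5 members had -0.51 and the 8241 others 0.21. The difference between members and other genes thus widened with exonic length, and it was not tested. Exonic length can exceed that of a gene's transcripts. The members' median was 745 bp by transcript against 983 bp by exons, and that of all tested genes 2552.5 against 3066 bp. Genes without a listed transcript kept their exonic length in these medians. The classes therefore do not match members and other genes by transcript length. Cytosolic ribosomal protein genes, which are also short, had a median of -0.69 with 76 of 76 negative, and mitochondrial ribosomal protein genes -0.49 with 72 of 77 negative. In the edgeR test 0 of either group passed, 73 and 44 being lower at an unadjusted p below 0.05, against 12% of all tested genes.

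Members differed in how far they moved from library to library. Atp5a1, the alpha subunit of the catalytic head of complex V, had an SD of 0.07 on the log2 CPM scale over the 16 libraries, the lowest of 91. It stood at 1018, 975, 972 and 978 CPM in the wild-type libraries, 893, 942, 929 and 953 in Dp16, 896, 880.2, 922 and 1025 in 5xFAD, and 987, 887, 973 and 976 in 5xFAD-Dp16. Only its Dp16 and wild-type groups did not overlap, with a log2 change of -0.09 ± 0.09 (edgeR adjusted p = 1.00). Ndufs1, the largest subunit of complex I and a carrier of iron-sulfur clusters, followed with an SD of 0.13. Cox7b, a small subunit of complex IV, had an SD of 0.52 and ran from 253 to 1018 CPM. Within groups, the median SD was 0.22 for 13 members of catalytic or redox role (Cox4i1 included as the largest nuclear subunit of complex IV), 0.35 for the other 70 subunits and 0.36 for all tested genes. In 5xFAD-Dp16 minus 5xFAD the medians were -0.24 for those 13 and -0.60 for the other 70, and after removal of the exonic length trend they were -0.03 and -0.20.

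Sdha departed from the rest. The flavoprotein that oxidises succinate, coded at chr13:74322254-74350280, had 229, 187, 219.8 and 261 CPM in the wild-type libraries, 237, 209, 271 and 194 in Dp16, 206, 191, 140.2 and 196 in 5xFAD, and 277, 200.4, 223 and 209.8 in 5xFAD-Dp16. It was lowest in 5xFAD replicate 3, where 71 members had their highest level, and highest in 5xFAD-Dp16 replicate 1, where 57 members had their lowest. Its log2 change was 0.33 ± 0.17 in 5xFAD-Dp16 minus 5xFAD (edgeR adjusted p = 0.244) and -0.29 ± 0.15 in 5xFAD minus wild-type (edgeR adjusted p = 0.514). Its exonic length is 2900 bp. Besides Sdha, 6 tested members had a positive estimate in 5xFAD-Dp16 minus 5xFAD, namely Ndufv1, Uqcrc1, Atp5a1 and the minor isoforms Cox4i2, Cox7a1 and Ndufa4l2.

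**Figure D5:**
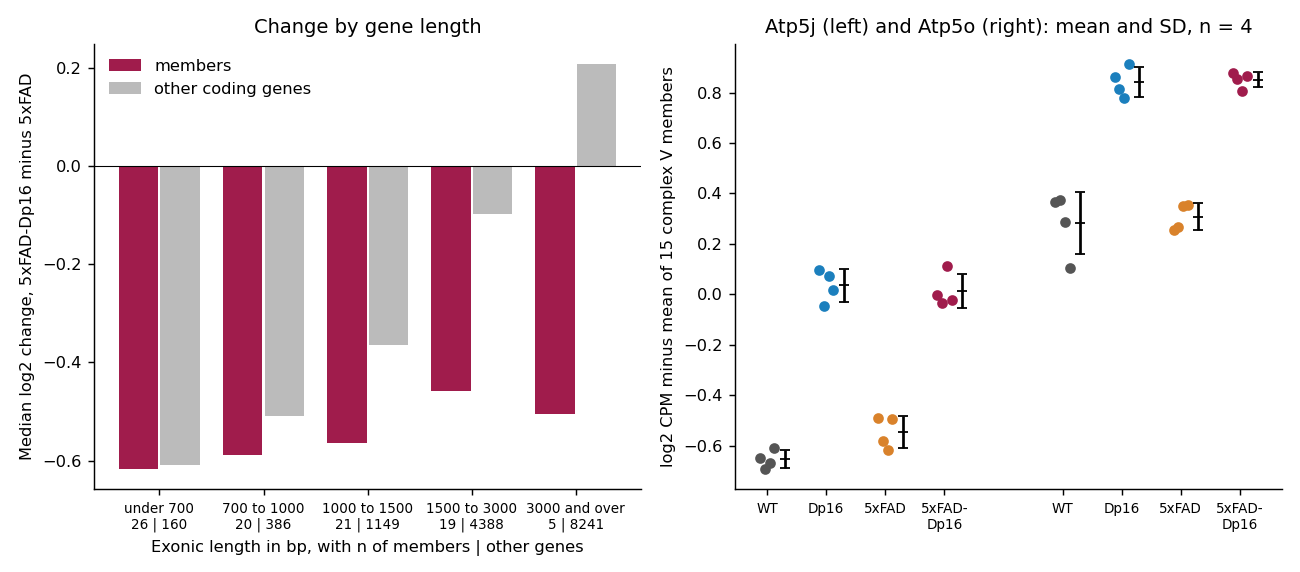
Left, median log2 change in 5xFAD-Dp16 minus 5xFAD of members and of other coding genes by exonic length, with the number of each; the pairs are alike below 700 bp (-0.62 and -0.61) and apart at 3000 bp and over (-0.51 and 0.21). Right, log2 CPM of Atp5j and Atp5o minus the mean of the 15 complex V members in each library, with mean and SD of 4 animals; libraries with the Dp16 duplication lie above those without it for both genes.

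The other comparisons with 5xFAD-Dp16 share its 4 libraries and gave negative medians too. In 5xFAD-Dp16 minus wild-type, 89 of 91 members were negative with a median of -0.43, beside 47.6% of all tested genes negative. EdgeR called 0 members (0.0% of all genes lower, 0.047% higher), and 32 were lower and 0 higher at an unadjusted p below 0.05, against 5.12% and 5.25% of all genes. In 5xFAD-Dp16 minus Dp16, 88 of 91 were negative with a median of -0.36, against 48.4% of all genes. EdgeR called 0 members in that comparison (0.0% of all genes lower, 0.0176% higher), with 10 lower at an unadjusted p below 0.05 (2.63% of all genes) and 0 higher (2.67%). DESeq2 called 0 in either. Without the count filter edgeR called 17 lower against wild-type, with 0.371% of all genes lower and 0.631% higher, and 2 lower against Dp16, with 0.0721% and 0.0823%. In 7 members the 5xFAD-Dp16 libraries all lay below the Dp16 libraries, against 2.61% of all tested genes, whereas they all lay below the wild-type libraries in 1 member, against 1.61% of all tested genes. The lowest ratios of change to standard error there were those of Cox6a1 at -0.42 ± 0.16, Ndufa13 at -0.37 ± 0.14 and Ndufc1 at -0.56 ± 0.23 (edgeR adjusted p = 0.758 for each). Against wild-type they were Cox6a2 at -0.68 ± 0.20, Cox8a at -0.49 ± 0.15 and Cox6a1 at -0.48 ± 0.16, with edgeR adjusted p between 0.355 and 0.415. Removal of the exonic length trend brought the medians to -0.15 against wild-type and -0.12 against Dp16.

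Dp16 alone showed little shift of the members. In Dp16 minus wild-type 70 of 91 were negative, but the median was -0.07, and the share of negative changes among all tested genes was 49.6%. EdgeR called 0 members higher or lower (0.0176% and 0.0% of all genes) and DESeq2 0, while 1 was higher and 1 lower at an unadjusted p below 0.05 (2.48% and 1.40% of all genes). These were Cox4i2, at 0.77 ± 0.34, and Cox6a2, at -0.41 ± 0.18, with edgeR adjusted p of 1.00 each. Cox6a2 had 17.4, 21.9, 18.6 and 13.6 CPM in the wild-type libraries, 14.1, 12.1, 12.8 and 14.5 in Dp16, 15.3, 12.6, 18.5 and 20.01 in 5xFAD, and 10.6, 13.96, 10.9 and 10.6 in 5xFAD-Dp16. Its Dp16 libraries overlapped the wild-type range at the lowest wild-type value. The direction of the members' median changed with single libraries: it was 0.14 without wild-type replicate 2 and -0.20 without wild-type replicate 4.

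5xFAD alone was also not separated from wild-type. In 5xFAD minus wild-type 67 of 91 members were positive and the median was 0.12, against 52.1% positive among all tested genes. EdgeR called 0 (0.159% of all genes higher and 0.0176% lower) and DESeq2 0, with 1 member higher and 3 lower at an unadjusted p below 0.05 (5.22% and 5.53% of all genes). The median was -0.10 without 5xFAD replicate 3 and 0.32 without wild-type replicate 2. Uqcrc1, a core protein of complex III, had 432, 484, 411 and 352 CPM in wild-type and 293, 325, 362 and 325 in 5xFAD, so that the lowest wild-type and the highest 5xFAD library overlapped. Its log2 change was -0.36 ± 0.11 (edgeR adjusted p = 0.269), and with the exonic length trend removed it was -0.40 with an edgeR adjusted p of 0.0297, the only member past the threshold in that fit, which called 0.0411% of all genes lower and 0.17% higher. Ndufv1, the flavoprotein of complex I that accepts electrons from NADH, had 281, 267, 260.5 and 202 CPM in wild-type and 202, 195, 201 and 207 in 5xFAD. The lowest wild-type library alone overlapped 5xFAD, and the change was -0.32 ± 0.11 (edgeR adjusted p = 0.305). Ndufa4l2, on 968 reads in all, had 1.67, 4.29, 5.45 and 4.15 CPM in wild-type and 2.17, 2.11, 1.32 and 2.92 in 5xFAD, with a change of -0.86 ± 0.37 (edgeR adjusted p = 0.415). Cox8b, on 110 reads in all, had 0 to 0.238 CPM in wild-type and 0.396 to 0.725 in 5xFAD, too few reads for a firm fold.

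The interaction asked whether the Dp16 difference was the same with and without the 5xFAD transgenes. Its estimate was negative in 85 of 91 members, with a median of -0.51, against 50.8% of all tested genes. EdgeR called 0 members (0.0% of all genes in either direction) and DESeq2 0, and 7 were lower at an unadjusted p below 0.05, against 4.77% of all genes, with 0 higher (4.58%). Without the count filter edgeR called 4 lower, against 0.299% of all genes lower and 0.889% higher. The lowest ratios of estimate to standard error were those of Ndufc1 at -0.75 ± 0.30, Ndufa5 at -0.61 ± 0.25 and Atp5md at -0.92 ± 0.39 (edgeR adjusted p = 0.522 each). Without 5xFAD replicate 3 the median was -0.22, and with the exonic length trend removed it was -0.17. The sex term of the fit was positive, males above females, in 85 of 91 members with a median of 0.14, against 48.9% of all genes. EdgeR called 0 members for sex, with 0 past an unadjusted p of 0.05 in either direction (0.0235% and 0.0118% of all genes called, 1.47% and 2.56% at the unadjusted level). Library scores over all members were 0.12 and -0.001 in wild-type males and 0.32 and -0.44 in wild-type females. In Dp16 they were 0.02 and -0.27 in males and 0.001 and 0.19 in females, and in 5xFAD 0.57 and 0.15 against -0.23 and -0.11. The 5xFAD-Dp16 group, without females, was adjusted by a sex term estimated from the other groups. Scores carry no such adjustment, and their means were 0.10 in 5xFAD and -0.31 in 5xFAD-Dp16.

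The 13 mRNAs of the mitochondrial genome, which code for further subunits, did not share the pattern of the nuclear genes. Their median log2 change was -0.04 in 5xFAD-Dp16 minus 5xFAD, with 6 positive and 7 negative, and 0.29 in 5xFAD minus wild-type, with 12 positive. These medians weigh alike mRNAs with very unlike numbers of counted reads, from 9.29 CPM for mt-Nd3 to 29202 for mt-Co1 in 5xFAD. How reads shared with similar sequences elsewhere were counted is not given in the sources used here. The CPM of these genes may therefore not reflect mRNA level. In 5xFAD-Dp16 minus 5xFAD the abundant mt-Nd1, mt-Nd2, mt-Nd4, mt-Nd5 and mt-Cytb had estimates of 0.12 to 0.52, and mt-Co1 had -0.06. The lowest were -0.63 for mt-Nd3 and -0.61 for mt-Co3. Only mt-Nd6, coded on the light strand, passed the edgeR test, rising from 76.8 CPM ± 18.1 (SD, n = 4) in wild-type to 130.2 ± 8.12 in 5xFAD, a log2 change of 0.80 ± 0.15 (adjusted p = 0.0314). The number of mitochondrial mRNA reads per read of the nuclear members was 2.03 ± 0.74 (SD, n = 4) in wild-type, 2.46 ± 0.58 in Dp16, 2.39 ± 1.05 in 5xFAD and 2.94 ± 0.39 in 5xFAD-Dp16.

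Neighbouring pathways gave smaller medians in 5xFAD-Dp16 minus 5xFAD, and edgeR called 0 genes in each of them. These medians were not adjusted for gene length, and their difference from the members was not tested. Assembly factors outside the name rule had a median of -0.29, with 34 of 40 negative. Of them 15 were lower and 0 higher at an unadjusted p below 0.05 in edgeR, against 12% and 11.8% of all tested genes. Electron carriers and linked dehydrogenases had -0.32 with 18 of 20 negative, of which 6 were lower and 1 of the others higher at that level. Cyc1, of complex III, is in that list and was at -0.32 ± 0.20 (edgeR adjusted p = 0.311). Outer membrane and import genes had -0.23 with 11 of 15 negative, 3 being lower and 0 higher at that level. Regulators of mitochondrial gene expression had -0.13 with 14 of 23 negative, 5 being lower and 4 higher. Citric acid cycle genes had -0.10 with 11 of 18 negative, 3 being lower and 1 higher. Glycolysis genes had a median of 0.11 with 12 of 16 positive, 3 being higher and 2 lower at that level. Nrf1 had means of 15.7 CPM in wild-type (SD 1.74, n = 4), 13.2 in Dp16 (SD 1.34), 14.2 in 5xFAD (SD 0.501) and 12.9 in 5xFAD-Dp16 (SD 1.39). Ppargc1a, a coactivator of mitochondrial biogenesis, stood at 22.3 CPM ± 5.26 in 5xFAD and 28.7 ± 2.48 in 5xFAD-Dp16, a log2 change of 0.49 ± 0.20 (edgeR adjusted p = 0.167). Pprc1 at 0.76 ± 0.36 and Polrmt at 0.60 ± 0.26 were also positive (edgeR adjusted p = 0.214 and 0.181). Other regulators had lower estimates: -0.98 ± 0.23 for Tfb1m, -0.86 ± 0.22 for Mterf3 and -0.74 ± 0.18 for Gabpb1, the partner subunit of GABP (edgeR adjusted p = 0.155 each).

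Some marker lists of cell types moved between the same groups. Their part in the members' values and their relation to the length rho of the libraries were not tested. No marker of these lists was at 0 in all libraries. The summed level of 16 microglial markers was 1039 to 1615 CPM in 5xFAD, 794 to 911 in 5xFAD-Dp16 and 682 to 810.4 in wild-type. For 15 excitatory neuron markers it was 2838 to 4671 in 5xFAD, 4705 to 6534 in 5xFAD-Dp16 and 3618 to 6548 in wild-type. For 11 endothelial markers it was 114 to 184 in 5xFAD, 166 to 275 in 5xFAD-Dp16 and 202 to 305 in wild-type. The 9 markers of hippocampus and thalamus summed to 68.6 to 106 CPM in 5xFAD, 123 to 162 in 5xFAD-Dp16 and 63.6 to 149 in wild-type, and the 8 tested were all positive in 5xFAD-Dp16 minus 5xFAD with a median of 0.83. Choroid plexus markers summed to at most 24.6 CPM in wild-type and 16.7 in 5xFAD but reached 113 in a Dp16 library and 707 in a 5xFAD-Dp16 library. The 9 parvalbumin interneuron markers, of a cell class rich in mitochondria, summed to 517 to 838 CPM in 5xFAD, 459 to 525 in 5xFAD-Dp16 and 519 to 683 in wild-type. Their estimates went both ways in 5xFAD-Dp16 minus 5xFAD, 5 being negative, down to -1.02 for the abundant Pvalb, and 4 positive, up to 0.76. Sums overlapped between 5xFAD and 5xFAD-Dp16 in further lists. They were 4956 to 6680 and 4906 to 6151 CPM for 12 astrocyte markers and 1993 to 2378 and 2133 to 2243 for 16 inhibitory neuron markers. For 12 markers of myelinating oligodendrocytes they were 6743 to 8440 and 6873 to 7153, and for 9 of striatum 1279 to 2056 and 1142 to 1862.

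Atp5j and Atp5o, which encode subunits of the peripheral stalk of complex V, were triplicated in Dp16 and 5xFAD-Dp16. Atp5j lies at chr16:84827866-84835625 on the minus strand and Atp5o at chr16:91925214-91931687, also on the minus strand (GRCm38, Gencode M21). Atp5j had 268, 303, 241 and 185 CPM in the wild-type libraries against 409, 386, 322 and 436 in those of Dp16, without overlap, a log2 change of 0.65 ± 0.17 (edgeR adjusted p = 0.603). In 5xFAD it had 225, 233, 378 and 305 CPM and in 5xFAD-Dp16 261, 332, 319 and 320.3, which overlapped, with a change of 0.06 ± 0.18 (edgeR adjusted p = 0.871). Atp5o had 542, 635, 467 and 304 CPM in the wild-type libraries against 695, 702, 525 and 811 in those of Dp16, with a change of 0.50 ± 0.22 (edgeR adjusted p = 1.00), and its change in 5xFAD-Dp16 minus 5xFAD was 0.01 ± 0.23 (edgeR adjusted p = 0.980).

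Set against the 15 other complex V genes of the same library, the pair separated the genotypes more sharply. The log2 level of Atp5j minus their mean was -0.65 ± 0.04 (SD, n = 4) in wild-type against 0.04 ± 0.06 in Dp16, and -0.55 ± 0.06 in 5xFAD and 0.01 ± 0.07 in 5xFAD-Dp16. For Atp5o it was 0.28 ± 0.12 and 0.84 ± 0.06, and 0.31 ± 0.05 and 0.85 ± 0.03. Libraries with and without the duplication did not overlap in either gene, the highest Atp5j value without it being -0.49 and the lowest with it -0.05. Gabpa, which encodes the DNA-binding subunit of GABP, is triplicated as well and lies head to head with Atp5j on the opposite strand, with starts 700 bp apart and transcripts that overlap. Its means were 12.98 CPM in wild-type (SD 3.13, n = 4), 21.7 in Dp16 (SD 1.54), 14.5 in 5xFAD (SD 2.27) and 22.2 in 5xFAD-Dp16 (SD 2.71). Its log2 change in Dp16 minus wild-type was 0.74 ± 0.18 (edgeR adjusted p = 0.405). The strand setting of the counting is not given in the sources used here, so reads from the shared stretch of Atp5j and Gabpa may not be assigned apart.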

How the data were processed

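Poly(A)+ RNA from cortex of 16 mice was sequenced from strand-specific libraries, per the labels' protocols. The authors deposited raw read counts for 55385 genes and a second table of RPKM values. Per the submitters' processing notes, bcl2fastq, FastQC 0.11.5, HISAT2 2.1.0, SAMtools 1.5, HTSeq 0.6.1 and build GRCm38 were used; no role or strand setting is given. RPKM values served for levels and, with the counts, for exonic length (relation within 0.1% for 100% of values). RefSeq and Gencode M21 gave promoters and coordinates.

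Counts were fitted in edgeR 4.0.16 (R 4.3.3): filterByExpr (17019 genes), TMM scaling, a mean per genotype plus sex over the 16 libraries, and two-sided robust quasi-likelihood tests Benjamini-Hochberg adjusted across the genes tested, at a threshold of 0.05. Log2 CPM used a prior count of 2. The tests weigh a difference against the spread between animals, and standard errors come from the same fit. The common biological coefficient of variation was 0.266. Library totals were 12483286 to 20385010 reads, and the results describe these 16 animals alone. Alternatives were RLE scaling, no count filter, no sex term, males only, the groups compared alone, removal of a length trend (lowess span 0.3), a replicate block, leaving out each library, scaling without the mitochondrial genome and DESeq2 1.42.0. Removal of a transcript-length trend was added after the data were seen. The fit was tested on simulated data. Members and lists were chosen with earlier results of these data known. Genes named with values were the catalytic subunits, isoform pairs, the highest and lowest level of each complex, and the 3 highest and 3 lowest ratios of change to standard error per comparison. Values of any other named gene, Cox7b included, were chosen after they were seen. The table holds 14 rows named as pseudogenes of members, which took 0.0395% of counts, and how reads were divided between such copies is not given in the sources used here. Motif letters were chosen after the promoter sequences were seen.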

Additional observations from a re-analysis of the deposited data

Results flagged for a closer look

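Among 364 pairs of a member and a genotype, 11 (3.02%) held 1 library whose gap to its nearest neighbour exceeded Dixon's critical share of the group's range; chance alone flags about 1 pair in 20. For Ndufs7, wild-type replicate 4 stood at 94.0 CPM against a median of 124 in the others. Atp5a1 stood apart in wild-type replicate 1 (1018 CPM against 975) and in 5xFAD-Dp16 replicate 2 (887 against 976), both small gaps in a gene of low spread. Ndufaf1, an assembly factor of complex I, reached 48.9 CPM in 5xFAD replicate 3 against 33.4. Cox6a2 stood at 13.96 CPM in 5xFAD-Dp16 replicate 2 against 10.6, and Cox6a1 at 487 in 5xFAD-Dp16 replicate 1 against 558. In Dp16 replicate 3, Atp5j2 stood at 250.4 CPM against 339 and Uqcrq at 237 against 322. Cox7b2 stood at 0.264 CPM in 5xFAD replicate 3 against 0.527. Atp5g2 was at 81.3 CPM in wild-type replicate 4 against 109, and Ndufaf3 at 51.0 in wild-type replicate 2 against 44.6.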

How the results depend on the processing

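In 5xFAD-Dp16 minus 5xFAD the count of 0 members became 55 without the count filter, 67 in males only, 74 in a fit to the groups compared alone and 7 with DESeq2. These fits called 863, 1850, 2509 and 325 of all genes lower and 1352, 2106, 2511 and 456 higher. Without the count filter the count was 2 against Dp16, 17 against wild-type and 4 for the interaction, where 21, 108 and 87 of all genes were called lower and 24, 184 and 259 higher. In 5xFAD minus wild-type it was 1 with either length trend removed (Uqcrc1, lower). With the exonic length trend removed, the median log2 change of the members was -0.18 in 5xFAD-Dp16 minus 5xFAD, -0.12 against Dp16, -0.15 against wild-type and -0.17 for the interaction. With the transcript length trend removed, an alternative chosen after seeing the data, these were -0.15, -0.11, -0.14 and -0.14. Against Dp16 the median was -0.16 in males only and -0.16 with the groups compared alone. The cause of these shifts was not tested.

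Leaving out 1 library at a time moved the median between -0.64 and -0.28 in 5xFAD-Dp16 minus 5xFAD and between -0.75 and -0.22 for the interaction, in both cases nearest 0 without 5xFAD replicate 3. It ranged from -0.20 to 0.14 in Dp16 minus wild-type and from -0.10 to 0.32 in 5xFAD minus wild-type, so that neither small median kept its sign. The count of members past the threshold was 0 in every such fit.

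Replicate numbers are not stated to pair animals, and 1 of 16 libraries correlated best with a library of its own number. With the replicate block the medians were -0.59 in 5xFAD-Dp16 minus 5xFAD, -0.38 against Dp16, -0.43 against wild-type and -0.51 for the interaction, with 0 calls. With the replicate block and the length trend removed they were -0.19, -0.13, -0.15 and -0.18, with 0 calls. RLE scaling, scaling without the mitochondrial genome and no sex term gave 0 calls in these comparisons too. Without both wild-type replicate 2 and 5xFAD replicate 3 the count was 0, and the median was 0.10 in Dp16 minus wild-type, opposite in sign to that of the full set. Depth limits Cox8b, Cox7b2, Cox6b2, Cox7a1, Cox4i2 and Ndufa4l2, which had 110 to 968 reads each over all libraries.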
